A study of Homo sapiens with 24 samples.

Results

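The 10 genes described here are cytokines, chemokines, feedback inhibitors and an adhesion receptor whose transcription is driven by nuclear factor kappa B (NF-kB): IL6, LIF, IL1A, IL1B, CCL2, CCL20, NFKBIA, TNFAIP3, BIRC3 and ICAM1. They were taken by symbol from the 48162 genes in each library's expression table, and every symbol had 1 row. NF-kB is a family of dimeric transcription factors held in the cytoplasm by inhibitor proteins of the IkB family. Signals from interleukin-1, tumour necrosis factor and Toll-like receptors destroy the inhibitor, so that NF-kB enters the nucleus and binds kappaB motifs near genes of inflammation. Some of those genes encode its own inhibitors, which shut the signal off again, and others encode cytokines that act on neighbouring cells, a circuit much studied in inflamed and cancerous pancreas.

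The study measured RNA in hTERT-HPNE (HPNE), a human pancreatic duct-derived line immortalised with telomerase, and HPDE-H6c7 (HPDE), a human pancreatic duct epithelial line. Cells of each line, grown in serum-free keratinocyte medium, received for 24 h either fresh serum-free medium (untreated), the residual medium left over from vesicle isolation (residual medium), extracellular vesicles (EV) of the pancreatic cancer line PANC-1, or EV of the pancreatic cancer cells PPCL-68. EV were given at 1e10 per well, and the residual medium is the negative control for vesicle isolation. The 8 groups hold 3 libraries each, 24 in all, which the submitters call biological triplicates. The labels do not say which cells conditioned the residual medium, and each kind of cell is represented by 1 line. Levels are in FPKM, which normalises fragments to transcript length and library size. Differences are of log2(FPKM + 1) with their standard error (SE), 3 libraries against 3. The + 1 shrinks the differences of genes near or below 1 FPKM. Adjusted p-values come from limma with Benjamini-Hochberg adjustment over all genes tested, and "rose" and "fell" are used where the adjusted p was under 0.05. They measure only the spread between these libraries.

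Library totals recovered from the FPKM steps ran from 29209142 to 46490312 reads. In each HPNE group 1 library lay apart: its distance from the other two, as a root mean square over genes, was 2.05 to 3.31 times the distance between them, against 1.08 to 1.24 times in HPDE. These were untreated library 3, residual medium library 3, PANC-1 EV library 1 and PPCL-68 EV library 1. The members' values that these libraries change most are also given without them. Values of receptors and other pathway genes are given only with all libraries. Dividing by size factors moved the median difference over all HPNE genes between residual medium and untreated cells from -0.048 to 0.064. Of 8 duct epithelial markers, EPCAM, KRT19, CDH1, MUC1 and CFTR stayed under 1 FPKM in every HPNE library, while KRT7, KRT18 and SOX9 reached it. MUC1 and CFTR stayed under 1 FPKM in every HPDE library as well. The 8 summed to 1288 to 2855 FPKM in HPDE. Of 10 leukocyte markers, 9 in HPNE and 8 in HPDE stayed under 1 FPKM in every library, and the 10 together summed to at most 1.87 FPKM in HPNE and 2.95 in HPDE. In bulk RNA, fewer cells of a kind and less RNA per cell cannot be told apart.

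The promoters of 8 of the 10 genes were matched by symbol in RefSeq's table (GRCh38.p14), and the 250 bases before the transcription start were searched for the kappaB motif on both strands. Of 35116 such windows in the table, 5.21% held at least 1 match. The windows of IL6, CCL20, NFKBIA, TNFAIP3 and BIRC3 held one, and they are printed because these genes rose in both lines and carry the motif upstream of their start. Capitals mark the match, and all sequences read 5′ to 3′ on the gene's own strand, so a match on the opposite strand appears as its reverse complement.
IL6: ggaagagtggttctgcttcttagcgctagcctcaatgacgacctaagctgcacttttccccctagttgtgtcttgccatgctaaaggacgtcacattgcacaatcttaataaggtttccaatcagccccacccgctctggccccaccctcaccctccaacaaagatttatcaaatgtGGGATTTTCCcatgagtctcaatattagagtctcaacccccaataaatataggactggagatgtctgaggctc
CCL20: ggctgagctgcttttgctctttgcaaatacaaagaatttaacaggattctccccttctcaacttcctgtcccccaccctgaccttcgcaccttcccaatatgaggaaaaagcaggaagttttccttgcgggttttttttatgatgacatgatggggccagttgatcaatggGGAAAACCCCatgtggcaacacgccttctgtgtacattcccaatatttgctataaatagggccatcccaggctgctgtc
NFKBIA: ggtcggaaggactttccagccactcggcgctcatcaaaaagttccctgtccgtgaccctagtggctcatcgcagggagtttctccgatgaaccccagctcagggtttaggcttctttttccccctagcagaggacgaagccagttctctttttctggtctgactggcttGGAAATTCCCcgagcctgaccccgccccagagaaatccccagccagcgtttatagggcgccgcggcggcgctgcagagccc
TNFAIP3: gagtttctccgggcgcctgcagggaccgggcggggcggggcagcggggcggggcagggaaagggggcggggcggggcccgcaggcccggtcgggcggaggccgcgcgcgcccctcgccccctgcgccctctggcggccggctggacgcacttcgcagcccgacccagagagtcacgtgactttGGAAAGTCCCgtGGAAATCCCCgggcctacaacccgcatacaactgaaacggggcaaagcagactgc
BIRC3: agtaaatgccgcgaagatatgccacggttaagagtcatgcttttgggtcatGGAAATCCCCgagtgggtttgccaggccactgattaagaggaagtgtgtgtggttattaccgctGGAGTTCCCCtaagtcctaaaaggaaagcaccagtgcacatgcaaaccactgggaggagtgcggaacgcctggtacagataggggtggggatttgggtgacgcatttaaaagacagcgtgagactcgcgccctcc
The IL6 window lies at chr7:22726950-22727199, plus strand, and its match spans bases 73 to 64 before the start. The CCL20 window (chr2:227813592-227813841, plus strand) has its match at bases 79 to 70 before the start, on the opposite strand. The NFKBIA window (chr14:35404750-35404999, minus strand) has one at bases 81 to 72, also on the opposite strand. The TNFAIP3 window (chr6:137867009-137867258, plus strand) holds a pair of matches 2 bases apart, at 67 to 58 and 55 to 46, and the BIRC3 window (chr11:102317234-102317483, plus strand) holds a pair at 199 to 190 and 135 to 126, all 4 on the opposite strand. Read on the strand that matches, the IL6 bases are GGGATTTTCC, the CCL20 bases GGGGTTTTCC and the NFKBIA bases GGGAATTTCC. In all but BIRC3 a match thus lay between 81 and 46 bases before the start. The windows of IL1A, IL1B and ICAM1 held no match to these letters. A match describes the sequence only, since no binding was measured.

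Every member that was tested rose in residual medium, the negative control, over untreated cells. In HPNE, 8 of the 10 genes had a mean of at least 1 FPKM over the 12 libraries and were tested, and all 8 rose over untreated cells, by 0.98 (NFKBIA) to 3.86 (IL1B) on the log2 scale. Over all 11503 HPNE genes tested, 18.7% rose. IL6, CCL20 and BIRC3 were under 1 FPKM in untreated HPNE and entered the test through their treated groups, so the count is no support for them. In HPDE, 9 genes were tested and all 9 rose in residual medium, by 0.48 (ICAM1) to 1.78 (IL1B), where 9.93% of 12223 genes rose. IL6 was under 1 FPKM in untreated HPDE too and entered that test through its treated groups, so this count is no support for it. The members' median difference was 2.53 in HPNE and 0.77 in HPDE, beside -0.048 and -0.0094 over all genes tested. These medians include the genes just reserved. The members were also chosen with earlier results of these data known, so their counts and medians describe these libraries and are no independent support.

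Some members rose further with vesicles. With PANC-1 EV against residual medium, 4 of 8 rose in HPNE (IL6, LIF, IL1B and ICAM1; 13.9% of all genes rose) and 8 of 9 in HPDE (all but LIF; 28.2% of all genes rose). With PPCL-68 EV against residual medium, 5 of 8 rose in HPNE (IL1B, NFKBIA, TNFAIP3, BIRC3 and ICAM1; 20.3% of all genes rose). In HPDE, 4 of 9 rose (IL1A, CCL20, NFKBIA and TNFAIP3; 31.3% of all genes rose), and IL1B and BIRC3 fell, where 36.4% of all genes fell. In that last comparison 4 and 2 of 9 members stand near the shares of all genes. Dividing by size factors gave 6 higher and 2 lower there, beside 33.5% and 33.8% of all genes, with IL6 and ICAM1 added. Without the 4 HPNE libraries that lay apart, 8 of 8 rose in residual medium (35.7% of all genes rose), and 5 of 8 rose over it in either vesicle group (28.1% of all genes for PANC-1 EV and 28.2% for PPCL-68 EV). The members' medians against residual medium in HPNE came to 0.72 (PANC-1 EV) and 0.66 (PPCL-68 EV), beside 0.020 and 0.0026 over all genes tested. In HPDE they came to 0.72 and 0.21, beside -0.041 and -0.032. Both vesicle comparisons within a line use the same residual medium libraries. Against untreated cells every tested member rose with either vesicle: all 8 in HPNE, where 9.61% of genes rose under PANC-1 EV and 18.7% under PPCL-68 EV, and all 9 in HPDE, where 26.3% and 30.1% rose. The reserve on IL6, CCL20 and BIRC3 in HPNE, on IL6 in HPDE, and on the choice of the members holds for these counts and medians too.

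**Figure D1:**
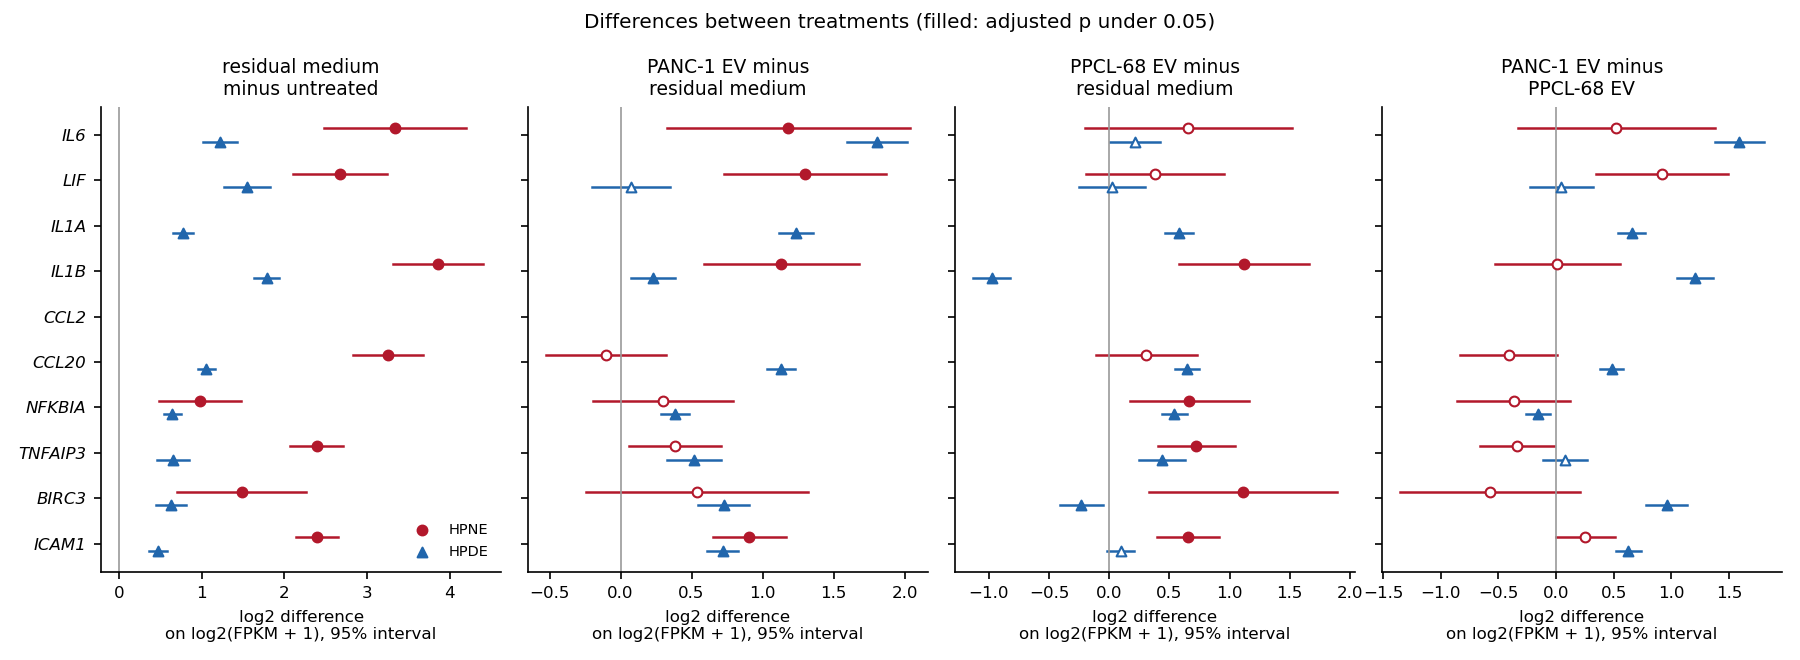
Differences of log2(FPKM + 1) for each gene (rows) in 4 comparisons (panels), in HPNE (circles) and HPDE (triangles), with 95% intervals from limma; filled points have an adjusted p under 0.05, and genes not tested in a line have no point. All 17 points of the residual medium panel lie to the right of 0, while IL1B in the PPCL-68 EV panel lies at 1.12 in HPNE and -0.98 in HPDE.

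IL6 (ENSG00000136244, chr7:22765503-22771621 on the plus strand in hg19) encodes interleukin-6, a secreted cytokine that signals through STAT3. In HPNE its level was 0.169, 0.230 and 0.411 FPKM in untreated libraries 1 to 3, 12.2, 11.1 and 12.2 with residual medium, 18.8, 42.0 and 27.9 under PANC-1 EV and 42.1, 14.4 and 11.5 under PPCL-68 EV. Untreated HPNE, with 8 to 24 reads, lay below every treated library, and the 42.1 of PPCL-68 EV came from library 1, which lay apart. The rise in residual medium was 3.34 ± 0.39 (adjusted p = 0.000180), and the mean FPKM was 43.8 times that of untreated cells. With PANC-1 EV it rose by a further 1.18 ± 0.39 (adjusted p = 0.0477). That call stood at the threshold: it was lost without PANC-1 EV library 2 (0.90, adjusted p = 0.156), without PANC-1 EV library 3 (adjusted p = 0.0976) and without any 1 of the residual medium libraries (adjusted p = 0.115, 0.130 and 0.0592). Blocking on the replicate number ended it as well (adjusted p = 0.0732). In all, 9 of 13 alternative fits lost the call, and the adjusted p over the 13 ran from 3.15e-05 to 0.156. PPCL-68 EV differed from residual medium by 0.66 ± 0.39 (adjusted p = 0.202), with overlapping libraries, and by 0.11 (adjusted p = 0.762) without library 1.

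In HPDE IL6 was lower than in HPNE in every treated group. Its level was 0.434, 0.419 and 0.538 FPKM untreated, 2.07, 3.07 and 2.17 with residual medium, 10.6, 11.2 and 10.9 under PANC-1 EV and 3.25, 3.01 and 2.62 under PPCL-68 EV. The 3 PANC-1 EV libraries stood above all others, and PPCL-68 EV overlapped residual medium. The rise in residual medium was 1.22 ± 0.099 (adjusted p = 8.90e-07), and with PANC-1 EV it rose by a further 1.80 ± 0.099 (adjusted p = 1.83e-09). PPCL-68 EV differed from residual medium by 0.21 ± 0.099 (adjusted p = 0.0678). Without residual medium library 2 that difference became 0.34 (adjusted p = 0.00267), and without PPCL-68 EV library 3 it became 0.28 (adjusted p = 0.0358). PANC-1 EV exceeded PPCL-68 EV by 1.59 ± 0.099 (adjusted p = 2.00e-08). Among the members tested in HPDE, IL6 had both the largest rise over residual medium with PANC-1 EV and the largest gap between the 2 vesicle sources.

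LIF (ENSG00000128342, chr22:30636436-30642840 on the minus strand), leukemia inhibitory factor, is a cytokine of the IL-6 family that uses the same signalling subunit. HPNE libraries held 4.99, 4.82 and 11.0 FPKM untreated, 49.0, 49.3 and 42.1 with residual medium, 94.0, 137 and 122 under PANC-1 EV and 79.3, 53.8 and 53.5 under PPCL-68 EV. The 4 groups did not overlap, and PANC-1 EV stood highest. LIF rose by 2.67 ± 0.26 (adjusted p = 5.97e-05) in residual medium and by 1.30 ± 0.26 (adjusted p = 0.00611) more with PANC-1 EV, while PPCL-68 EV differed from residual medium by 0.38 ± 0.26 (adjusted p = 0.269). Without PPCL-68 EV library 1 the latter was 0.20 (adjusted p = 0.615). HPDE libraries held 5.85, 7.50 and 8.00 FPKM untreated, 17.7, 25.5 and 25.5 with residual medium, 26.3, 24.2 and 21.2 under PANC-1 EV and 22.6, 24.8 and 21.8 under PPCL-68 EV. The 3 treated HPDE groups overlapped one another. LIF rose there by 1.55 ± 0.13 (adjusted p = 1.14e-06) in residual medium, and it did not pass the threshold with either vesicle: PANC-1 EV differed by 0.073 (95% interval -0.20 to 0.35) and PPCL-68 EV by 0.026 (-0.25 to 0.30).

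**Figure D2:**
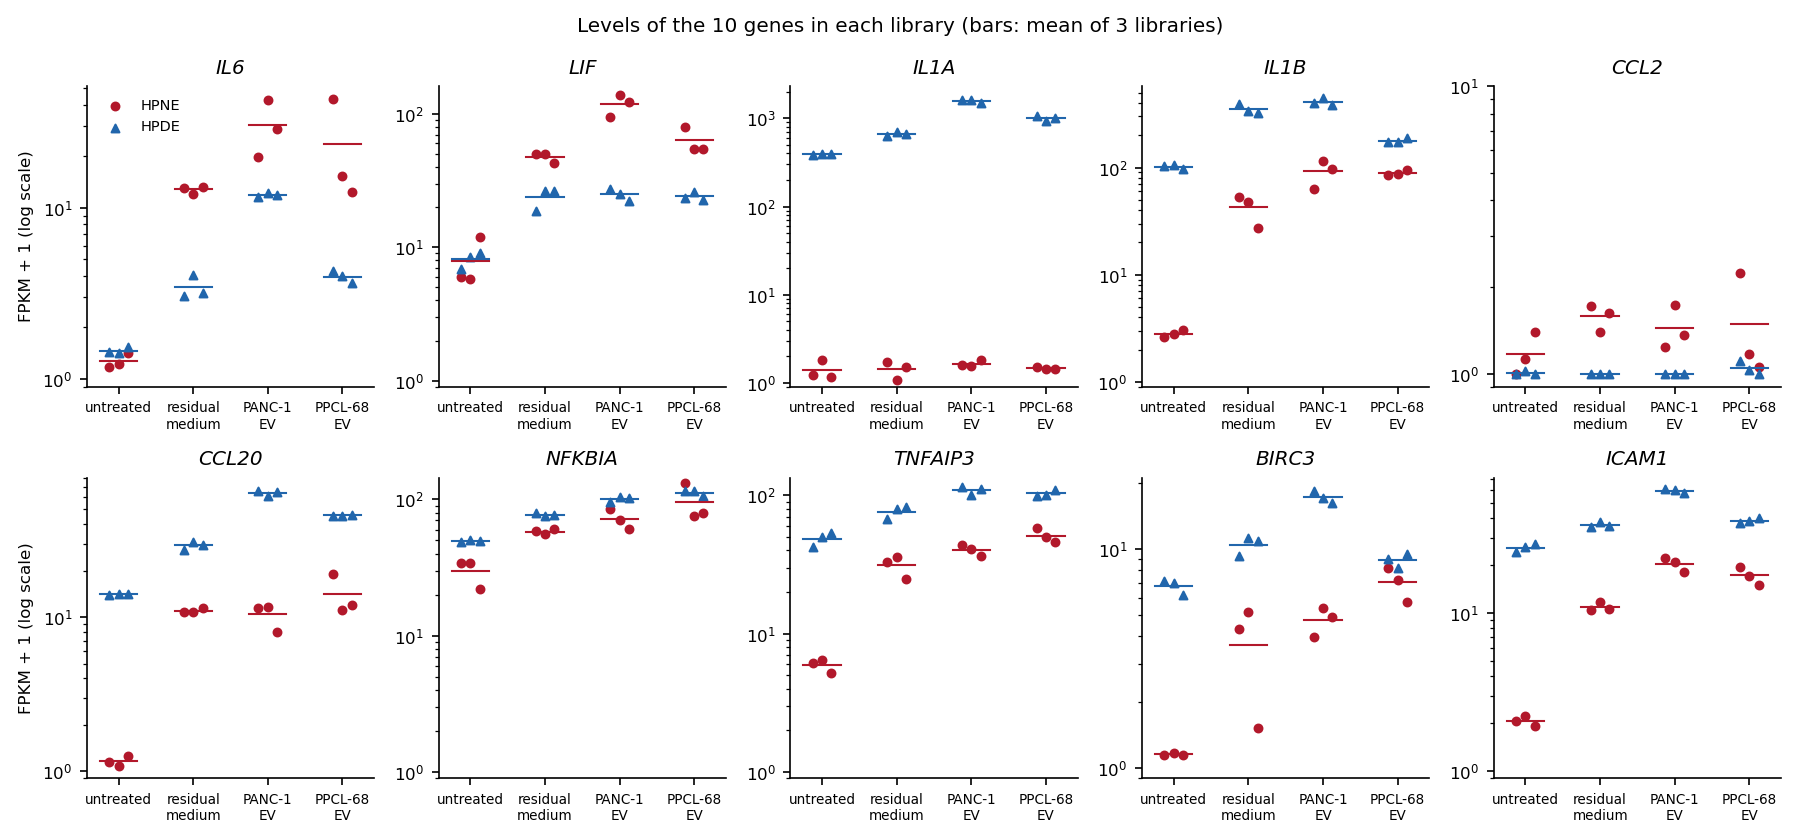
FPKM + 1 on a log axis for the 10 genes (panels) by treatment, 1 point per library for HPNE (circles) and HPDE (triangles), with bars at the group means. IL1A is at 382.8 FPKM or more in every HPDE library and under 1 in every HPNE library, CCL2 is near 0 in HPDE, and the untreated HPNE points of IL6, CCL20 and BIRC3 sit near the bottom of their panels.

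IL1A (ENSG00000115008, chr2:113531492-113542167 on the minus strand) encodes interleukin-1 alpha, an alarm cytokine that epithelia keep ready and release on damage. It was the most abundant member in HPDE and was barely present in HPNE. HPDE libraries held 383, 392 and 396 FPKM untreated, 636, 694 and 668 with residual medium, 1597, 1616.5 and 1493 under PANC-1 EV and 1055, 939 and 997 under PPCL-68 EV. The 4 groups did not overlap, in the order untreated, residual medium, PPCL-68 EV, PANC-1 EV. IL1A rose by 0.77 ± 0.056 (adjusted p = 2.94e-07) in residual medium, by 1.24 ± 0.056 (adjusted p = 2.98e-10) more with PANC-1 EV and by 0.58 ± 0.056 (adjusted p = 4.02e-07) more with PPCL-68 EV. PANC-1 EV exceeded PPCL-68 EV by 0.65 ± 0.056 (adjusted p = 4.26e-07). In HPNE, by contrast, no library passed 0.826 FPKM (6 to 65 reads). The HPNE values were 0.213, 0.826 and 0.172 untreated, 0.713, 0.0853 and 0.511 with residual medium, 0.605, 0.537 and 0.801 under PANC-1 EV and 0.495, 0.426 and 0.450 under PPCL-68 EV. IL1A was not tested there, being under the mean of 1 FPKM, and a fit without that filter called it in no HPNE comparison (adjusted p of 0.502 to 1).

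IL1B (ENSG00000125538, chr2:113587328-113594480 on the minus strand), interleukin-1 beta, is the inflammasome-processed interleukin-1 and a textbook NF-kB target. HPNE libraries held 1.60, 1.82 and 2.02 FPKM untreated, 52.0, 46.6 and 26.0 with residual medium, 62.7, 114 and 96.8 under PANC-1 EV and 84.3, 85.1 and 94.4 under PPCL-68 EV. All vesicle libraries lay above all residual medium libraries, and the 2 vesicle groups overlapped. IL1B rose by 3.86 ± 0.25 (adjusted p = 3.72e-06) in residual medium. It rose by 1.13 ± 0.25 (adjusted p = 0.00899) more with PANC-1 EV and by 1.12 ± 0.25 (adjusted p = 0.00501) more with PPCL-68 EV. A fit of only the 6 libraries compared left the PANC-1 EV rise short of the threshold (adjusted p = 0.0568).

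In HPDE IL1B parted from IL1A. Its libraries held 102, 104 and 95.2 FPKM untreated, 391, 335 and 323 with residual medium, 401, 444 and 383 under PANC-1 EV and 173, 170.3 and 187 under PPCL-68 EV. PPCL-68 EV lay between untreated cells and residual medium without overlapping either, and PANC-1 EV overlapped residual medium. IL1B rose by 1.78 ± 0.072 (adjusted p = 8.64e-10) in residual medium. With PPCL-68 EV it fell, with a difference from residual medium of -0.98 ± 0.072 (adjusted p = 2.62e-08) and a mean of 0.505 times that of residual medium. The rise with PANC-1 EV was 0.23 ± 0.072 (adjusted p = 0.0129), a call lost without PANC-1 EV library 2 (0.17, adjusted p = 0.0671) or without residual medium library 3 (0.17, adjusted p = 0.0686). PANC-1 EV exceeded PPCL-68 EV by 1.21 ± 0.072 (adjusted p = 1.51e-08).

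The balance of the 2 interleukin-1 transcripts in HPDE is shown by their ratio. The ratio of IL1A to IL1B in FPKM was 3.89 ± 0.23 (SD, n = 3) untreated, 1.92 ± 0.26 with residual medium, 3.84 ± 0.18 under PANC-1 EV and 5.65 ± 0.40 under PPCL-68 EV. Untreated and PANC-1 EV libraries overlapped in this ratio, residual medium lay below them and PPCL-68 EV above. The ratio itself was not tested. In HPNE the mean ratio was 0.224 ± 0.201 untreated and at most 0.0117 in the treated groups, from IL1A levels under 1 FPKM.

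**Figure D3:**
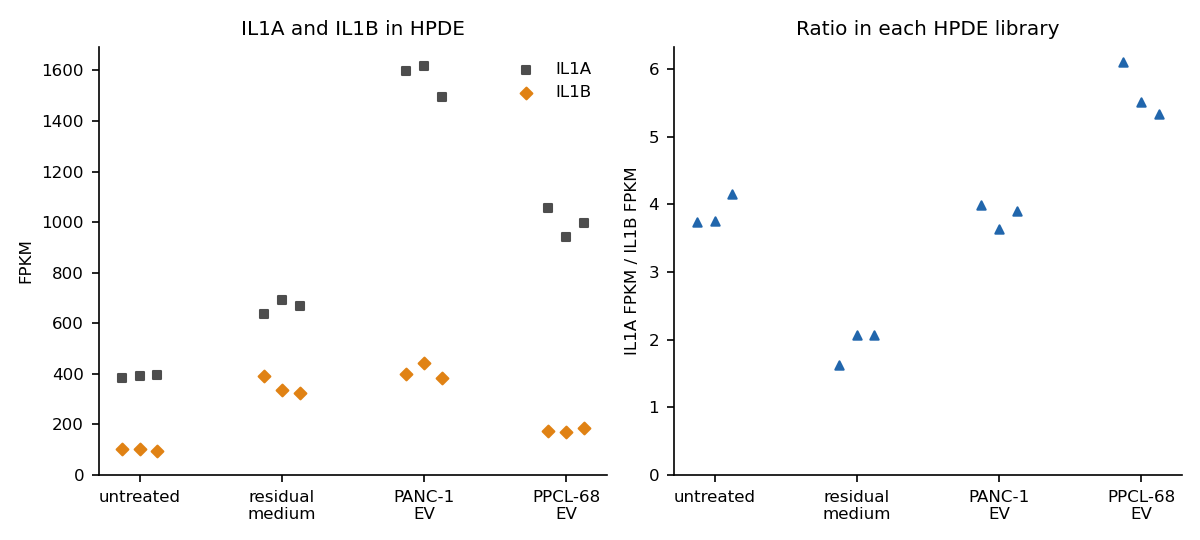
IL1A and IL1B FPKM (left) and their ratio (right) in each of the 12 HPDE libraries, by treatment; 1 point per library. IL1A is above residual medium with either vesicle, IL1B is below it with PPCL-68 EV, and the ratio is lowest with residual medium (1.63 to 2.07) and highest with PPCL-68 EV (5.33 to 6.10).

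CCL2 (ENSG00000108691, chr17:32582237-32584222 on the plus strand) encodes the monocyte attractant MCP-1, and it was near the limit of detection in both lines. In HPDE 9 of 12 libraries had no read, and the largest count was 3 reads. A count of 0 allows up to 3 reads, which is 0.103 FPKM in the shallowest HPDE library. HPNE values were 0, 0.128 and 0.394 FPKM untreated, 0.725, 0.394 and 0.627 with residual medium, 0.242, 0.734 and 0.364 under PANC-1 EV and 1.24, 0.168 and 0.0549 under PPCL-68 EV. Both the lowest and the highest treated values came from the PPCL-68 EV group. CCL2 reached the mean of 1 FPKM in neither line and was not tested, and without that filter no comparison called it (adjusted p of 0.180 to 1).

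CCL20 (ENSG00000115009, chr2:228678558-228682272 on the plus strand) encodes the chemokine that attracts CCR6-bearing lymphocytes and dendritic cells. HPNE libraries held 0.155, 0.0768 and 0.252 FPKM untreated, 9.86, 9.74 and 10.5 with residual medium, 10.5, 10.7 and 7.05 under PANC-1 EV and 18.0, 10.2 and 11.1 under PPCL-68 EV. Untreated HPNE had 2 to 8 reads, and the 3 treated groups overlapped. CCL20 rose by 3.25 ± 0.19 (adjusted p = 2.20e-06) in residual medium. PANC-1 EV differed from residual medium by -0.10 (95% interval -0.52 to 0.32) and PPCL-68 EV by 0.31 (-0.11 to 0.73), neither past the threshold. PPCL-68 EV library 1, at 18.0 FPKM, carried most of the latter, which was 0.072 (adjusted p = 0.742) without it. HPDE libraries held 13.0, 13.1 and 13.1 FPKM untreated, 26.4, 29.9 and 28.4 with residual medium, 64.6, 60.3 and 63.7 under PANC-1 EV and 44.4, 44.5 and 45.1 under PPCL-68 EV. These 4 groups did not overlap and stood in the same order as for IL1A. CCL20 rose in HPDE by 1.05 ± 0.047 (adjusted p = 2.20e-09) in residual medium, by 1.13 ± 0.047 (adjusted p = 1.08e-10) more with PANC-1 EV and by 0.65 ± 0.047 (adjusted p = 2.02e-08) more with PPCL-68 EV, and PANC-1 EV exceeded PPCL-68 EV by 0.48 ± 0.047 (adjusted p = 1.42e-06).

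NFKBIA (ENSG00000100906, chr14:35870717-35873955 on the minus strand) encodes IkB-alpha, which binds NF-kB dimers and carries them back out of the nucleus, and its transcript is a direct NF-kB target. HPNE libraries held 32.9, 33.3 and 21.0 FPKM untreated, 57.4, 54.7 and 59.1 with residual medium, 83.4, 69.6 and 60.1 under PANC-1 EV and 131, 74.2 and 77.8 under PPCL-68 EV. Each treated group lay above untreated HPNE, and both vesicle groups lay above residual medium. NFKBIA rose by 0.98 ± 0.22 (adjusted p = 0.00629) in residual medium and by 0.67 ± 0.22 (adjusted p = 0.0349) more with PPCL-68 EV. PPCL-68 EV library 1, at 131 FPKM, lay apart: without it the vesicle difference was 0.41 (adjusted p = 0.118). It was 0.43 (adjusted p = 0.000261) without the library that lay apart in every HPNE group. Leaving out residual medium library 1 or 2 also ended the call (adjusted p = 0.0813 and 0.0937). PANC-1 EV differed from residual medium by 0.30 ± 0.22 (adjusted p = 0.342), by 0.18 (adjusted p = 0.642) without PANC-1 EV library 1, and by 0.20 (adjusted p = 0.0236) without the libraries that lay apart.

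HPDE libraries held NFKBIA at 47.3, 49.4 and 48.2 FPKM untreated, 78.7, 73.9 and 75.1 with residual medium, 94.4, 102 and 101 under PANC-1 EV and 114, 114 and 105 under PPCL-68 EV. The 4 groups did not overlap, and PPCL-68 EV stood highest. NFKBIA rose by 0.64 ± 0.047 (adjusted p = 3.25e-07) in residual medium, by 0.38 ± 0.047 (adjusted p = 7.07e-06) more with PANC-1 EV and by 0.54 ± 0.047 (adjusted p = 1.46e-07) more with PPCL-68 EV. The direct difference of PANC-1 EV from PPCL-68 EV was -0.16 ± 0.047 (adjusted p = 0.0125), a call lost without PANC-1 EV library 1 (-0.12, adjusted p = 0.0593) or PPCL-68 EV library 2 (-0.14, adjusted p = 0.0546).

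TNFAIP3 (ENSG00000118503, chr6:138188351-138204449 on the plus strand) encodes A20, a ubiquitin-editing enzyme that stops signalling upstream of the IkB kinase. HPNE libraries held 5.09, 5.47 and 4.16 FPKM untreated, 31.8, 35.0 and 23.8 with residual medium, 42.5, 39.9 and 35.4 under PANC-1 EV and 56.8, 48.8 and 44.8 under PPCL-68 EV. The 4 groups did not overlap. TNFAIP3 rose by 2.39 ± 0.15 (adjusted p = 3.04e-06) in residual medium and by 0.72 ± 0.15 (adjusted p = 0.00325) more with PPCL-68 EV (0.47, adjusted p = 0.000311, without the libraries that lay apart). PANC-1 EV differed from residual medium by 0.38 ± 0.15 (adjusted p = 0.0775), and blocking on the replicate number gave an adjusted p of 0.0206. Without residual medium library 3 that difference was 0.23 (adjusted p = 0.184). HPDE libraries held 41.2, 48.8 and 52.6 FPKM untreated, 65.9, 78.0 and 81.5 with residual medium, 114, 100.2 and 109 under PANC-1 EV and 98.5, 98.9 and 109 under PPCL-68 EV. The 2 vesicle groups overlapped each other and lay above residual medium. TNFAIP3 rose in HPDE by 0.65 ± 0.089 (adjusted p = 0.000177) in residual medium, by 0.52 ± 0.089 (adjusted p = 0.000145) more with PANC-1 EV and by 0.44 ± 0.089 (adjusted p = 0.000481) more with PPCL-68 EV.

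BIRC3 (ENSG00000023445, chr11:102188215-102210134 on the plus strand) encodes cIAP2, a ubiquitin ligase that protects from death receptor signals and restrains the noncanonical NF-kB kinase NIK. HPNE libraries held 0.149, 0.178 and 0.146 FPKM untreated, 3.33, 4.15 and 0.519 with residual medium, 2.96, 4.36 and 3.89 under PANC-1 EV and 7.19, 6.23 and 4.74 under PPCL-68 EV. The 0.519 FPKM of residual medium library 3, which lay apart, was far below its group's other libraries and above every untreated library. BIRC3 rose by 1.48 ± 0.36 (adjusted p = 0.00785) in residual medium and by 1.11 ± 0.36 (adjusted p = 0.0286) more with PPCL-68 EV. Without residual medium library 3 the latter was 0.56 (adjusted p = 0.0177). It lost the call without PPCL-68 EV library 1 (0.99, adjusted p = 0.0836) or library 2 (1.08, adjusted p = 0.0738). PANC-1 EV overlapped residual medium, at 0.54 ± 0.36 (adjusted p = 0.280), and the difference was -0.0065 (adjusted p = 0.978) without residual medium library 3.

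In HPDE BIRC3 was at 6.15, 5.97 and 5.17 FPKM untreated, 8.27, 10.2 and 9.89 with residual medium, 17.4, 16.2 and 15.2 under PANC-1 EV and 7.98, 7.17 and 8.50 under PPCL-68 EV. PANC-1 EV stood above all others, and PPCL-68 EV overlapped residual medium from below. BIRC3 rose by 0.63 ± 0.084 (adjusted p = 0.000141) in residual medium and by 0.73 ± 0.084 (adjusted p = 3.57e-06) more with PANC-1 EV. In cells given PPCL-68 EV it fell, with a difference from residual medium of -0.23 ± 0.084 (adjusted p = 0.0226). That call was lost without residual medium library 2 (-0.18, adjusted p = 0.0982) or 3 (-0.20, adjusted p = 0.0787) and without PPCL-68 EV library 2 (-0.17, adjusted p = 0.104). PANC-1 EV exceeded PPCL-68 EV by 0.96 ± 0.084 (adjusted p = 5.25e-07).

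ICAM1 (ENSG00000090339, chr19:10381511-10397291 on the plus strand) encodes the cell-surface adhesion receptor that leukocyte integrins bind. HPNE libraries held 1.06, 1.25 and 0.941 FPKM untreated, 9.42, 10.8 and 9.61 with residual medium, 21.4, 20.2 and 17.0 under PANC-1 EV and 18.6, 16.3 and 13.9 under PPCL-68 EV. Untreated, residual medium and vesicle libraries formed 3 separate ranges, and the 2 vesicle groups overlapped. ICAM1 rose by 2.39 ± 0.12 (adjusted p = 7.06e-07) in residual medium, by 0.91 ± 0.12 (adjusted p = 0.000713) more with PANC-1 EV and by 0.65 ± 0.12 (adjusted p = 0.00164) more with PPCL-68 EV. HPDE libraries held 23.3, 25.3 and 26.2 FPKM untreated, 33.9, 36.5 and 34.7 with residual medium, 59.6, 59.3 and 56.1 under PANC-1 EV and 36.0, 37.3 and 39.1 under PPCL-68 EV. PPCL-68 EV overlapped residual medium, and PANC-1 EV stood above both. ICAM1 rose in HPDE by 0.48 ± 0.051 (adjusted p = 1.68e-05) in residual medium and by 0.72 ± 0.051 (adjusted p = 2.80e-08) more with PANC-1 EV, while PPCL-68 EV differed from residual medium by 0.094 ± 0.051 (adjusted p = 0.116). Divided by size factors, that last difference was 0.12 (adjusted p = 0.0361). PANC-1 EV exceeded PPCL-68 EV by 0.63 ± 0.051 (adjusted p = 2.73e-07).

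The 2 vesicle sources were also compared directly. In HPDE 6 of the 9 tested members were higher with PANC-1 EV (IL6, IL1A, IL1B, CCL20, BIRC3 and ICAM1), where 25.2% of all genes were higher, and NFKBIA was lower, where 24.9% were lower. LIF and TNFAIP3 did not pass, at 0.047 (95% interval -0.23 to 0.32) and 0.078 (-0.11 to 0.27). In HPNE limma called 0 of 8 members between the vesicle sources, beside 5.47% of all genes, and 2 of the 8, LIF and TNFAIP3, had an unadjusted p under 0.05. The fit on recovered reads (voom) also called 0. Without PPCL-68 EV library 1, IL6 (1.07, adjusted p = 0.0322) and LIF (1.10, adjusted p = 0.0382) were higher with PANC-1 EV. Without the library that lay apart in every HPNE group, IL6 (1.35, adjusted p = 0.000225) and LIF (1.26, adjusted p = 1.30e-06) were higher and NFKBIA (-0.23, adjusted p = 0.0234) and TNFAIP3 (-0.31, adjusted p = 0.0106) lower. In that fit 36.5% of all genes were called, so 4 of 8 members stand near the share of all genes.

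Whether the lines responded alike was tested as the HPDE difference minus the HPNE difference, over 12377 genes, with 9 members tested. For residual medium against untreated cells, IL6, LIF, IL1B, CCL20, TNFAIP3 and ICAM1 responded less in HPDE, where 17.1% of all genes had a lower response, and IL1A responded more (0.73 ± 0.20, adjusted p = 0.00813), where 21% had a higher one. The lower responses ran from -1.13 ± 0.31 (adjusted p = 0.00933) for LIF to -2.20 ± 0.21 (adjusted p = 3.01e-07) for CCL20. At all of these 6 but LIF, every untreated HPDE library lay above every untreated HPNE library. For IL6 the margin was slight, 0.419 FPKM in the lowest HPDE library against 0.411 in the highest HPNE library. IL6, under 1 FPKM in untreated cells of both lines, entered this test through its treated groups, so the count is no support for it. Its line difference lost the call with voom (-3.12, adjusted p = 0.130). CCL20 was under 1 FPKM in untreated HPNE, so its value too depends on the + 1. The response of NFKBIA did not differ past the threshold, at -0.34 (95% interval -0.84 to 0.17). BIRC3 did not either, at -0.85 ± 0.39 (adjusted p = 0.0882), although it was -1.40 (adjusted p = 8.00e-06) without residual medium library 3 of HPNE.

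For PANC-1 EV against residual medium the lines differed at 4 members, and at 6 without the HPNE libraries that lay apart, where 46.7% of all genes differed. LIF (-1.23 ± 0.31, adjusted p = 0.00886) and IL1B (-0.90 ± 0.27, adjusted p = 0.0238) responded less in HPDE (12.5% of all genes had a lower response), and IL1A (1.01 ± 0.20, adjusted p = 0.00121) and CCL20 (1.23 ± 0.21, adjusted p = 0.000307) responded more (8.65% a higher one). The IL1B difference was lost without PANC-1 EV library 2 of HPNE (-0.72, adjusted p = 0.0706), PANC-1 EV library 3 of HPDE (adjusted p = 0.0537) or residual medium library 1 of HPDE (adjusted p = 0.0643). Both IL1A differences, here and in residual medium, rest on HPNE levels under 1 FPKM and were lost with a pseudocount of 0.1 (adjusted p = 0.544 and 0.344). BIRC3 differed by 0.19, and by 0.73 (adjusted p = 0.00504) without residual medium library 3 of HPNE. TNFAIP3 differed by 0.14, and by 0.35 (adjusted p = 0.0429) without the libraries that lay apart. For PPCL-68 EV against residual medium, IL1B (-2.10 ± 0.27, adjusted p = 1.37e-05), BIRC3 (-1.34 ± 0.39, adjusted p = 0.0152) and ICAM1 (-0.56 ± 0.13, adjusted p = 0.00318) responded less in HPDE, where 13.6% of all genes had a lower response, and none responded more, where 12.1% did. BIRC3 was -0.80 (adjusted p = 0.00244) without residual medium library 3 of HPNE. IL1A missed the threshold at 0.53 ± 0.20 (adjusted p = 0.0546) and passed without residual medium library 2 of HPNE (0.72, adjusted p = 0.00522), as CCL20 did without PPCL-68 EV library 1 of HPNE (0.57, adjusted p = 0.00919).

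Over the 12 libraries of a line, the tested members moved together as a description of these libraries, which share their treatment groups. Pearson correlations of log2(FPKM + 1) ran from 0.794 (LIF with NFKBIA) to 0.981 (IL1B with TNFAIP3) over the 28 pairs in HPNE, with a median of 0.929. In HPDE they ran from 0.597 (IL1B with NFKBIA) to 0.991 (IL6 with ICAM1) over 36 pairs, with a median of 0.870. The genes outside the members whose levels followed NFKBIA most closely in HPNE were SOD2 (r = 0.973), TLR2 (0.969) and ZC3H12A (0.961), and those nearest IL6 were RELB (0.973), IER3 (0.972) and CXCL2 (0.968). In HPDE LCN2 (0.991), TMEM206 (0.990) and IL32 (0.990) were nearest NFKBIA, and IL24 (0.984) and EDN1 (0.983) were among the genes nearest IL6. All those of HPNE, and IL32 of HPDE, are on the list of other pathway genes described next. That list was chosen with earlier results of these data known, so this overlap is no support.

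Receptors for the members' products are given as levels, with no test between the lines. IL1R1, the signalling receptor for both interleukin-1 proteins, was at 119.7 ± 27.6 FPKM (SD, n = 3) in untreated HPNE and 0.968 ± 0.203 in untreated HPDE. HPDE, where IL1A was the most abundant member, thus held little IL1R1. In HPNE IL1R1 fell in residual medium, with a difference of -1.88 ± 0.58 (adjusted p = 0.0232); its libraries there ran from 19.2 to 78.2 FPKM. Its partner IL1RAP was at 8.95 ± 0.639 FPKM in untreated HPNE and 16.9 ± 0.788 in untreated HPDE. The antagonist IL1RN was under 1 FPKM in HPNE and rose in HPDE with PANC-1 EV against residual medium, by 0.56 ± 0.11 (adjusted p = 0.000406).

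The IL-6 family receptors were led by their shared subunit. IL6ST, the signalling subunit for both IL6 and LIF, was at 38.3 ± 0.636 FPKM in untreated HPNE and 18.5 ± 0.734 in untreated HPDE. It rose with PPCL-68 EV against residual medium in both lines, by 0.57 ± 0.093 (adjusted p = 0.000982) in HPNE and 0.63 ± 0.059 (adjusted p = 3.08e-07) in HPDE. With PANC-1 EV against residual medium it rose in HPDE too, by 0.70 ± 0.059 (adjusted p = 1.47e-07). In HPNE the difference of PANC-1 EV from PPCL-68 EV was -0.47 ± 0.093 (adjusted p = 0.0182). IL6R, which binds IL6, was higher in HPDE (5.59 ± 0.193 FPKM untreated) than in HPNE (1.66 ± 0.261) as a description of levels. In HPDE IL6R fell in residual medium, with a difference of -0.53 ± 0.075 (adjusted p = 0.000228), and rose with PPCL-68 EV against residual medium, by 1.23 ± 0.075 (adjusted p = 3.07e-09). At IL6R PANC-1 EV differed from PPCL-68 EV in HPDE by -0.66 ± 0.075 (adjusted p = 6.58e-06). LIFR stayed between 0.552 and 2.11 FPKM in every library. The chemokine receptor CCR2 had no read in any library and CCR6 reached at most 0.035 FPKM, as ITGAL, a subunit of the ICAM1-binding integrin of leukocytes, reached at most 0.015. TNF, a classical NF-kB activator and target, was at most 0.438 FPKM, while its receptor TNFRSF1A was at 93.6 ± 3.78 FPKM in untreated HPNE and 80.2 ± 3.37 in untreated HPDE.

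Beyond the members, 78 other genes of the pathway were listed by role, and 59 of them were tested in HPNE and 63 in HPDE. In residual medium against untreated cells 32 rose and 5 fell in HPNE, with a median of 0.50, where 18.7% of all genes rose and 25.2% fell. In HPDE 29 rose and 3 fell, with a median of 0.21, where 9.93% rose and 10.1% fell. The counts per role that follow are to be read beside these shares. Because the list was chosen with earlier results of these data known, its counts and medians describe these libraries. They are no independent support, here or in the vesicle comparisons below. The other cytokines had the largest medians of the 6 roles, 4.39 and 1.05. All 8 tested in HPNE rose, led by the neutrophil attractants IL8 (8.43 ± 0.29, adjusted p = 8.17e-08) and CXCL1 (6.68 ± 0.31, adjusted p = 6.38e-07), and 9 of 12 rose in HPDE, again led by IL8 (2.54 ± 0.095, adjusted p = 8.48e-10) and CXCL1 (1.84 ± 0.11, adjusted p = 3.08e-08). Only 8 of the 17 listed cytokines had the mean of 1 FPKM needed for the test in HPNE. A gene low in untreated cells can reach that mean through its treated groups. For such genes the count and the median are no support. Of the 5 NF-kB subunits, 4 rose in HPNE and 3 in HPDE. NFKB2, which yields the p52 subunit, rose by 1.69 and 0.51, and RELB, its usual partner, by 1.66 and 0.36. Of the other inhibitors and feedback genes, 6 of 10 rose in HPNE, led by NFKBIZ (1.84), and 7 of 10 in HPDE, led by SOCS3 (1.35), the feedback inhibitor of IL-6 family signals. The 15 kinases and adaptors had medians of 0.013 and 0.027. Of these, 6 rose and 2 fell in HPNE, and 2 rose and 0 fell in HPDE. IRAK2 of the interleukin-1 receptor complex rose in both lines (1.21 and 0.35).

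With PANC-1 EV against residual medium, 17 of the pathway genes rose and 2 fell in HPNE, where 13.9% of all genes rose and 10.3% fell. In HPDE 35 rose and 8 fell, where 28.2% rose and 35.1% fell. Of the other cytokines 10 of 12 rose in HPDE, with LTB (1.75 ± 0.13, adjusted p = 6.73e-08) and CXCL3 (1.62 ± 0.15, adjusted p = 3.43e-07) in front. In HPNE 1 of 8 rose, CXCL2 (0.96 ± 0.26, adjusted p = 0.0227), and 2 fell, with a median of -0.033. The larger fall was that of CXCL5 (-1.86 ± 0.32, adjusted p = 0.00289). Among the other targets, PTGS2, the inducible cyclooxygenase, rose by 1.56 in HPNE and 2.26 in HPDE, and the transcription factor IRF1 led in HPNE at 1.63. NFKB1, which yields the p50 subunit, rose in both lines, by 0.58 and 0.81.

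With PPCL-68 EV against residual medium, 22 of the pathway genes rose and 3 fell in HPNE, where 20.3% of all genes rose and 19.7% fell. In HPDE 27 rose and 17 fell, where 31.3% rose and 36.4% fell. In HPDE the other cytokines split, 6 up and 4 down of 12, with CXCL3 (2.00 ± 0.15, adjusted p = 2.45e-08) and CSF2 (1.15 ± 0.083, adjusted p = 1.96e-08) in front, and the other targets split 4 up and 5 down of 12. Both counts of the targets, and the falls of the cytokines, stand near the shares of all genes. The members split as well in this comparison, as given for IL1B and BIRC3, and their counts stand near those shares too. In HPNE, IRF1 (2.13 ± 0.21, adjusted p = 5.99e-05) and SOD2 (1.32 ± 0.39, adjusted p = 0.0194) led the other targets, and CXCL2 (1.41 ± 0.26, adjusted p = 0.00204) the other cytokines. The medians of all 59 or 63 pathway genes against residual medium for PANC-1 EV and PPCL-68 EV in turn came to 0.14 and 0.19 in HPNE. In HPDE they came to 0.33 and 0.12.

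**Figure D4:**
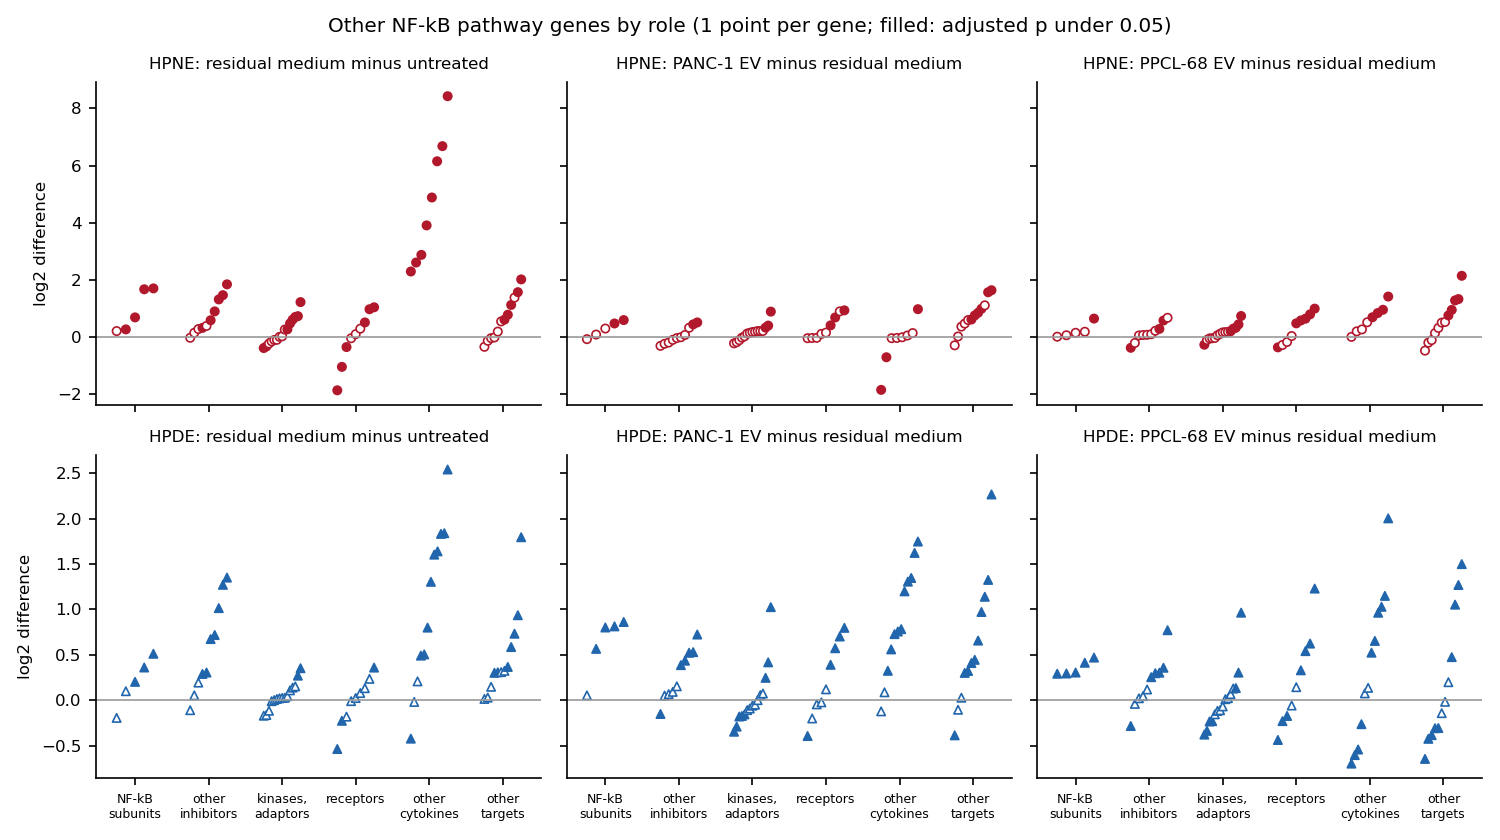
Log2 differences of the other pathway genes, 1 point per gene, grouped by role, for HPNE (top, circles) and HPDE (bottom, triangles; the rows have different axes) in 3 comparisons; filled points have an adjusted p under 0.05. In residual medium the other cytokines of HPNE reach 8.43, and with PPCL-68 EV the other cytokines and targets of HPDE lie on both sides of 0. Of all HPDE genes tested, 31.3% rose and 36.4% fell with PPCL-68 EV against residual medium.

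Summed markers of cell kinds, including kinds whose markers were abundant in the lines themselves, differed between some of these groups. The summed leukocyte markers in HPNE were 1.28 to 1.87 FPKM untreated, 0.688 to 0.879 with residual medium, 0.669 to 0.902 under PANC-1 EV and 0.365 to 0.676 under PPCL-68 EV. Untreated HPNE stood highest, and residual medium and PANC-1 EV overlapped. In HPDE they were 1.90 to 2.32 FPKM untreated, 2.25 to 2.95 with residual medium, 1.36 to 1.61 under PANC-1 EV and 1.24 to 2.19 under PPCL-68 EV. Summed duct epithelial markers in HPDE were 2141 to 2367 FPKM untreated, 2511 to 2855 with residual medium, 1371 to 1602 under PANC-1 EV and 1288 to 1302 under PPCL-68 EV. In HPNE the duct epithelial markers summed to only 5.72 to 10.3 FPKM, while all 8 mesenchymal markers reached 1 FPKM. Summed mesenchymal markers in HPNE were 12234 to 13064 FPKM untreated, 9249 to 12581 with residual medium, 10587 to 12666 under PANC-1 EV and 8759 to 10546 under PPCL-68 EV. In HPDE the mesenchymal sums were 80.7 to 90.3 FPKM untreated, 104 to 122 with residual medium, 95.9 to 107 under PANC-1 EV and 133 to 153 under PPCL-68 EV. Of 8 endothelial markers 7 were found, of which TEK and ROBO4 reached 1 FPKM in HPNE and none did in HPDE. They summed in HPNE to 0.923 to 1.41 FPKM untreated and 2.05 to 2.76 in the treated groups, and in HPDE to 0.940 to 1.35 over all libraries. The part of these markers in the members' differences was not tested. The libraries carry no strand information, so reads of an overlapping antisense gene cannot be separated: the most reads assigned to such a gene in any library were 142 (MGC20647, at LIF), 28 (RP11-356I2.4, at TNFAIP3) and 9 (AC073072.5, at IL6).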

How the data were processed

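The authors deposited 1 table of FPKM values per library, and the submitters' processing notes name CASAVA, STAR, HTSeq, DESeq2 and hg19 without role, order or version. The library kit was non-directional, per the labels' protocols. FPKM steps gave whole reads (tolerance 0.01 read) for 100% of values, from which totals and reads per gene were taken. Genes with a mean of at least 1 FPKM over the libraries fitted were tested on log2(FPKM + 1) with limma 3.58.1 in R 4.3.3 (trend), over the 12 libraries of a line or all 24 for line differences, with Benjamini-Hochberg adjustment and a threshold of 0.05. Scripts were tested on simulated data. The members and gene lists were chosen with earlier results of these data known. Named genes are the members, the 2 largest called changes per pathway role and comparison, receptors of the members' products, and the 3 genes most correlated with NFKBIA and IL6 per line, of which 1 is not reported here. The receptors, TNF and IL1RN were named for their link to the members. Replicate numbers are not said to mark a shared batch. Same-numbered libraries deviated together (every correlation over 0.1, 0.292 to 0.565) only between PANC-1 EV and PPCL-68 EV in HPNE, and blocking changed no call there. Alternatives were a pseudocount of 0.1, no filter, size factors, the block, the 6 libraries compared and each library left out; voom on recovered reads, and leaving out the libraries that lay apart, were chosen after seeing the data. Replicates differed by more than sampling noise (chi-square per degree of freedom of 3.90 or more). Promoters are RefSeq's (GRCh38.p14); gene positions are in hg19. Figures were drawn with matplotlib 3.10.9.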

Additional observations from a re-analysis of the deposited data

Results flagged for a closer look

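In 14 cases a member's response differed between the lines past the threshold, by the test of the difference itself (limma interaction contrast, HPDE difference minus HPNE difference of log2(FPKM + 1), Benjamini-Hochberg adjusted). In residual medium against untreated cells, HPDE responded less at CCL20 (-2.20), IL6 (-2.12), IL1B (-2.08), ICAM1 (-1.92), TNFAIP3 (-1.74) and LIF (-1.13), and more at IL1A (0.73). With PANC-1 EV against residual medium, HPDE responded less at LIF (-1.23) and IL1B (-0.90) and more at CCL20 (1.23) and IL1A (1.01). With PPCL-68 EV against residual medium, HPDE responded less at IL1B (-2.10), BIRC3 (-1.34) and ICAM1 (-0.56). Over all genes tested, 38.1%, 21.2% and 25.7% differed between the lines in these comparisons in turn. The 3 of 9 members with PPCL-68 EV stand near that last share. Both IL1A cases were lost with a pseudocount of 0.1 and with voom, and the IL6 case with voom. The IL1B case with PANC-1 EV was lost in 4 of 18 alternatives. Groups of 3 libraries were not tested for single outlying values.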

How the results depend on the processing

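Of 129 single-gene results for the members, 95 were called, and 84 of these kept the call in every alternative run: log2(FPKM + 0.1), dropping the low-value filter, size factors, a block on the replicate number, voom on recovered reads, only the 6 libraries compared, each library left out, and the 4 HPNE libraries that lay apart left out together. None of the 1758 alternative values reversed a called direction; 37 lost a call and 22 gained one. The count of members with PPCL-68 EV against residual medium in HPNE was 5, and 3 with no filter, with only the 6 libraries compared and without PPCL-68 EV library 1. The count between the vesicle sources in HPNE was 0, 2 without PPCL-68 EV library 1, and 4 without the libraries that lay apart. Leaving out 1 library at a time gave 8 to 8, 3 to 4, 3 to 5, 8 to 8, 8 to 8 and 0 to 2 called in HPNE (residual medium against untreated, PANC-1 EV and PPCL-68 EV against residual medium, each against untreated, and the vesicles against each other), 9 to 9, 7 to 8, 5 to 7, 9 to 9, 9 to 9 and 6 to 7 in HPDE, and 7 to 8, 3 to 5 and 3 to 4 for the line differences. Values of genes near or under 1 FPKM in untreated cells moved by over 1.5 times with a pseudocount of 0.1 and with voom, for example, in HPNE residual medium, IL6 5.06 and 5.47, CCL20 5.33 and 5.90, and BIRC3 3.02 and 3.68. In HPDE residual medium, IL6 was 2.15 and 2.35. The line difference of IL6 in residual medium lost its call with voom (-3.12, adjusted p = 0.130), and that of BIRC3 gained one with a pseudocount of 0.1 (-2.31, adjusted p = 0.00658) and with voom (-2.98, adjusted p = 0.0265). That of CCL20 became -4.23 and -4.79. Blocking on the replicate number left the counts as they were, 8, 4, 5, 8, 8 and 0 in HPNE, 9, 8, 6, 9, 9 and 7 in HPDE, and 7, 4 and 3 for the line differences, though IL6 lost and TNFAIP3 gained a call with PANC-1 EV in HPNE. In no pair of groups did all 6 libraries correlate best with their own number. Size factors moved the split of all HPNE genes in residual medium from 2153 higher and 2899 lower to 3329 and 2072, without changing a member's call there. Depth limits CCL2 in both lines and IL1A in HPNE.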
